A study of Brassica rapa subsp. pekinensis with 6 samples.

Results

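FLOWERING LOCUS C (FLC) and SUPPRESSOR OF OVEREXPRESSION OF CONSTANS 1 (SOC1) are represented by several gene copies in Chinese cabbage (Brassica rapa subsp. pekinensis). The 7 copies examined here are FLC1 (Bra009055), FLC2 (Bra028599), FLC3 (Bra006051), FLC5 (Bra022771) and the SOC1 copies Bra004928, Bra000393 and Bra039324. They were chosen by identifier from the 43354 identifiers of the count table. RNA was sequenced from flower buds of sterile and fertile plants of the male sterile line AB01, whose sterility is inherited through multiple alleles, with 3 sterile and 3 fertile libraries described as biological replicates. All plants grew in a greenhouse from seed sown after vernalization, the cold treatment that makes many crucifers competent to flower. The labels and the series' design text give neither bud stage, plant age nor the number of plants per library.

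FLC encodes a MADS-box transcription factor that represses flowering, and in Arabidopsis it binds and represses SOC1 and the florigen gene FT. Prolonged cold silences FLC through Polycomb-mediated histone methylation. SOC1 encodes another MADS-box factor, which in Arabidopsis integrates the vernalization, photoperiod and gibberellin pathways and promotes the change to flowering at the shoot apex. The Brassica lineage underwent a whole-genome multiplication after its split from Arabidopsis, so that many regulators persist as copies that can be expressed differently.

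The deposited tables held between 31893913 and 33615379 counts per sterile library and between 27637426 and 35564895 per fertile library. The groups differed across much of the transcriptome: 62.5% of 33150 genes tested passed an adjusted p of 0.05 (edgeR quasi-likelihood test, Benjamini-Hochberg), 29.2% higher and 33.3% lower in sterile buds, and 21.1% passed with a change of at least 2-fold. For 66.6% of genes no sterile library lay within the fertile range or the reverse. Scaling also mattered: TMM (trimmed mean of M values) put the median log2 fold change over genes at 0.00, and scaling to library size alone put it at 0.31, with 46.8% of calls higher in sterile buds under TMM and 74.1% under library size. TMM-scaled counts relative to the library total (CPM) are used for tests below, and the deposited RPKM, which are per length but scaled to library size alone, for levels between copies. The tables pair no identifier with a gene name, so the buds could not be checked against tissue markers, and other flowering genes such as FT were not analysed here.

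On the TMM scale, copies within each family moved in opposite directions. Of the 7 copies, 3 rose and 3 fell in sterile buds (edgeR adjusted p under 0.05, n = 3 per group), where 29.2% of all genes tested rose and 33.3% fell. The same 6 copies did not overlap between the groups in CPM, where 66.6% of all genes did not. With such a background these counts alone are no result about the copies, and the size and direction of each change are given instead. FLC1 and FLC5 rose and FLC2 fell, while Bra000393 rose and the other SOC1 copies fell. With library size alone the falls of Bra004928 and Bra039324 did not pass (edgeR adjusted p = 0.28 and 0.14). No copy changed by 2-fold on the TMM scale. The median absolute log2 fold change on that scale was 0.66 over the copies and 0.31 over all genes tested. The copies were chosen with earlier results of these data known, and this difference was not tested. In bulk buds, a change in the share of cells that express a gene and a change in RNA per cell cannot be told apart.

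FLC1, the copy with the most reads in sterile buds, showed the largest difference of the 7. Its level was 21.9, 21.5 and 23.6 CPM in the sterile libraries 1, 2 and 3, against 12.1, 11.9 and 11.7 CPM in the fertile libraries. Every sterile library stood above every fertile one, and the gap between the groups was several times the spread within either. Its log2 fold change was 0.91 ± 0.07 (SE), a 1.88-fold rise with a 95% interval of 1.71 to 2.07 (edgeR adjusted p = 2.4e-10). This change was higher than that of 93.1% of genes tested.

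FLC2, the most abundant copy of fertile buds, went the other way. It stood at 9.45, 8.66 and 8.75 CPM in the sterile libraries, against 13.2, 14.1 and 15.0 CPM in the fertile libraries. The groups did not overlap, and all sterile libraries were lower. The log2 fold change was -0.66 ± 0.08 (SE; edgeR adjusted p = 2.6e-07), a level in sterile buds 0.633 times that of fertile buds (95% interval 0.567 to 0.707). Of genes tested, 18.5% had a lower fold change.

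FLC5, whose model is the shortest of the family, rose in sterile buds. Its level was 3.05, 2.80 and 2.94 CPM in the sterile libraries, against 1.40, 1.78 and 1.75 CPM in the fertile libraries. These values rest on 102 to 109 reads per sterile library and 35 to 56 per fertile library, and the groups did not overlap. FLC5 had a log2 fold change of 0.83 ± 0.15 (SE), a 1.77-fold rise with a 95% interval of 1.43 to 2.20 (edgeR adjusted p = 7.7e-05).

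FLC3 had the fewest reads of the 7 copies, with 37, 43 and 42 counts in the sterile libraries and 22, 29 and 27 counts in the fertile libraries. In CPM it stood at 1.05, 1.18 and 1.13 in sterile buds, against 0.879, 1.15 and 0.844 in fertile buds. The ranges overlapped, through fertile library 2. The log2 fold change was 0.24 ± 0.21 (SE) and did not pass the test (edgeR adjusted p = 0.32). Its 95% interval ran from 0.876-fold to 1.59-fold. Scaled to library size alone, FLC3 did pass, with a log2 fold change of 0.54 (edgeR adjusted p = 0.021).

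Among the SOC1 copies, Bra000393 rose. It stood at 9.45, 10.4 and 10.5 CPM in the sterile libraries, against 6.79, 5.75 and 6.22 CPM in the fertile libraries. The groups did not overlap. This was a log2 fold change of 0.70 ± 0.09 (SE), a 1.62-fold rise with a 95% interval of 1.42 to 1.85 (edgeR adjusted p = 1.1e-06).

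Bra004928 fell. Its level was 5.29, 5.61 and 5.13 CPM in the sterile libraries, against 7.71, 5.91 and 7.97 CPM in the fertile libraries. The groups did not overlap, but fertile library 2 lay close to the sterile range. The log2 fold change was -0.44 ± 0.11 (SE; edgeR adjusted p = 0.0017), or 0.739 times the fertile level (95% interval 0.631 to 0.865).

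Bra039324 was the least abundant SOC1 copy, with 52 to 66 counts per sterile library and 52 to 80 per fertile library. It stood at 1.47, 1.81 and 1.57 CPM in sterile buds, against 2.64, 2.06 and 2.50 CPM in fertile buds. Sterile libraries were again all lower. The log2 fold change was -0.57 ± 0.16 (SE; edgeR adjusted p = 0.0044), or 0.673 times the fertile level (95% interval 0.534 to 0.849). The calls of both falls depended on scaling. With library size alone the log2 fold change was -0.13 for Bra004928 (edgeR adjusted p = 0.28) and -0.27 for Bra039324 (edgeR adjusted p = 0.14). With upper-quartile scaling both passed narrowly, at -0.25 for Bra004928 (edgeR adjusted p = 0.048) and -0.38 for Bra039324 (edgeR adjusted p = 0.039).

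**Figure D1:**
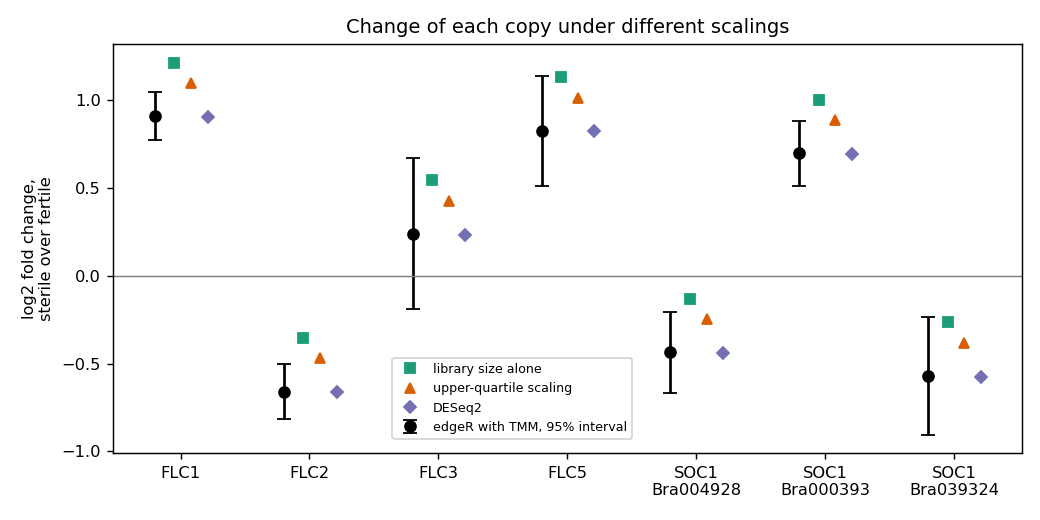
Log2 fold change of each copy, sterile over fertile, from edgeR with TMM scaling (black, with 95% interval) and under other scalings or tools (coloured). FLC1, FLC3, FLC5 and Bra000393 lie above 0 and FLC2, Bra004928 and Bra039324 below it at every setting drawn. The interval of FLC3 includes 0. Under library-size scaling the copies below 0 come closest to it, at -0.35 for FLC2, -0.13 for Bra004928 and -0.27 for Bra039324.

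The rise of FLC1, FLC5 and Bra000393 and the fall of FLC2 passed the test at every scaling and tool tried. Scaling to library size gave log2 fold changes of 1.22 for FLC1, 1.13 for FLC5, 1.00 for Bra000393 and -0.35 for FLC2. In the deposited RPKM, 5 of the 7 copies passed limma's test on log2(RPKM + 1), 4 higher and 1 lower in sterile buds, where 81.0% of 30204 genes were called, 61.1% higher and 19.9% lower. On that scale FLC3 rose, with a log2 fold change of 0.34 ± 0.09 (SE; limma adjusted p = 0.0059). The SOC1 copies Bra004928 and Bra039324 had log2 fold changes of -0.10 and -0.20 there and did not pass (limma adjusted p = 0.37 and 0.089).

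Per length, the copies differed by more than an order of magnitude within a group, and their order differed between the groups. In sterile buds FLC1 led with 40.0 ± 1.60 RPKM. Bra000393 followed with 17.6 ± 1.08 RPKM and FLC2 with 16.8 ± 0.766 RPKM, and the ranges of that pair overlapped. Then came Bra004928 with 9.26 ± 0.526 RPKM, FLC5 with 7.55 ± 0.269, Bra039324 with 2.80 ± 0.336 and FLC3 with 2.10 ± 0.144 (SD, n = 3 each), none overlapping its neighbour.

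In fertile buds FLC2 led with 21.5 ± 1.30 RPKM, above FLC1 with 17.2 ± 0.428 RPKM, without overlap. Bra004928 with 10.1 ± 1.63 RPKM and Bra000393 with 8.76 ± 0.795 RPKM overlapped, as did FLC5 with 3.42 ± 0.424 and Bra039324 with 3.36 ± 0.444 RPKM. FLC3 was again lowest, at 1.45 ± 0.244 RPKM (SD, n = 3 each). Among genes that passed the RPKM filter, FLC1 lay above 80.6% of genes in sterile buds and 62.9% in fertile buds, FLC2 above 60.4% and 68.5%, and FLC3 above 16.6% and 8.61%. Reads of every FLC copy were thus present in all libraries of both groups.

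**Figure D2:**
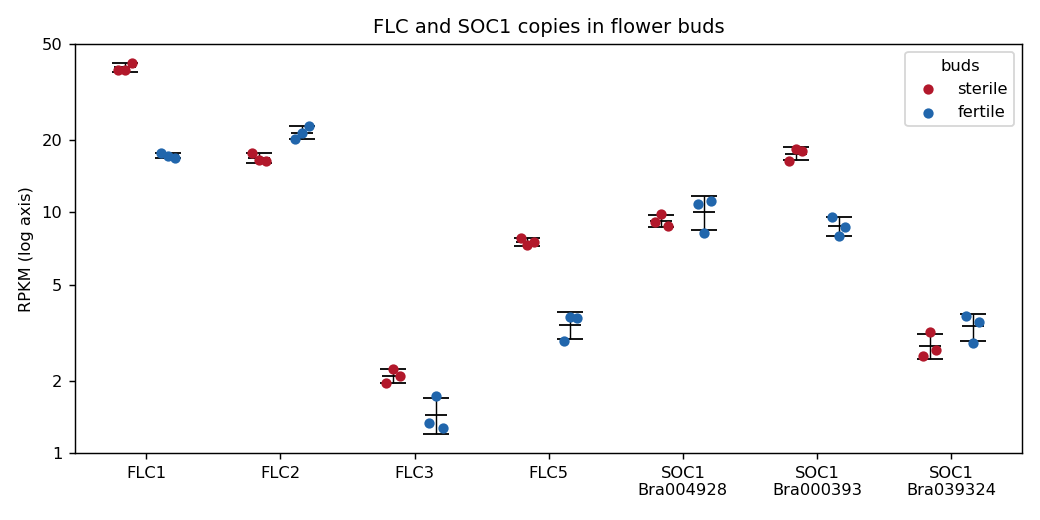
RPKM of each copy on a log axis, with 1 point per library and the mean ± SD in black (n = 3 per group, sterile left of fertile). FLC1 stands at 39.0 to 41.8 RPKM in sterile buds and 16.9 to 17.7 RPKM in fertile buds, whereas FLC2 is at 16.3 to 17.7 RPKM in sterile and 20.3 to 22.8 RPKM in fertile buds.

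On the TMM scale, the groups stood closer together in the family sums than in any of the copies that passed the test. A sum over copies that rose and fell lies between them, so this is no separate result. The summed counts of the 4 FLC copies gave 35.5, 34.1 and 36.4 CPM in the sterile libraries, against 27.7, 28.9 and 29.3 CPM in the fertile libraries. All sterile sums were higher, by 0.31 on the log2 scale or 1.24-fold. The exact two-sided permutation p was 0.1, the smallest that 3 against 3 allows, and 0.2 adjusted over both sums, so the design cannot take it past 0.05. With library-size scaling the difference was 0.61, larger in size than the -0.35 of FLC2, which also passed there (edgeR adjusted p = 0.00033).

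The 3 SOC1 copies summed to 16.2, 17.9 and 17.2 CPM in the sterile libraries, against 17.1, 13.7 and 16.7 CPM in the fertile libraries. These ranges overlapped, and the difference was 0.11 on the log2 scale (exact two-sided permutation p = 0.4). Fertile library 2 was the lowest of the fertile libraries for every SOC1 copy, and leaving it out gave a difference of 0.01; without fertile library 1 the difference was 0.18. With library-size scaling the difference was 0.42 (exact permutation p = 0.1), with all sterile sums higher.

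The copies' shares of their family differed between the groups. FLC1 made up 58.7%, 59.9% and 61.7% of summed FLC RPKM in the sterile libraries, against 41.9%, 39.1% and 37.8% in the fertile libraries. FLC2 made up 25.3% ± 1.26 in sterile buds and 49.2% ± 1.69 in fertile buds, and FLC5 11.4% ± 0.357 and 7.84% ± 0.793. FLC3 held 3.16% ± 0.262 in sterile and 3.33% ± 0.559 in fertile buds (SD, n = 3 each), within the spread of the libraries.

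Within the SOC1 family, Bra000393 held 58.3%, 58.5% and 61.1% in the sterile libraries, against 39.6%, 41.9% and 37.3% in the fertile libraries. Bra004928 held 31.3% ± 1.41 in sterile and 45.3% ± 2.36 in fertile buds, and Bra039324 9.44% ± 0.614 and 15.1% ± 0.220 (SD, n = 3 each). In both families the leading copy of fertile buds gave way to another in sterile buds, FLC2 to FLC1 and Bra004928 to Bra000393, although the SOC1 pair overlapped in fertile RPKM. Shares do not depend on library scaling. For 6 of the 7 copies the shares of the groups did not overlap, FLC3 being the exception. No background was computed for shares. The CPM of 66.6% of all single genes did not overlap, so this count is no result about the copies. The shares of a family sum to a whole, so these are not separate results. The exact two-sided permutation p was 0.1 for each of the 6 copies and 0.8 for FLC3. Adjusted over the 7 shares, these were 0.12 and 0.8.

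**Figure D3:**
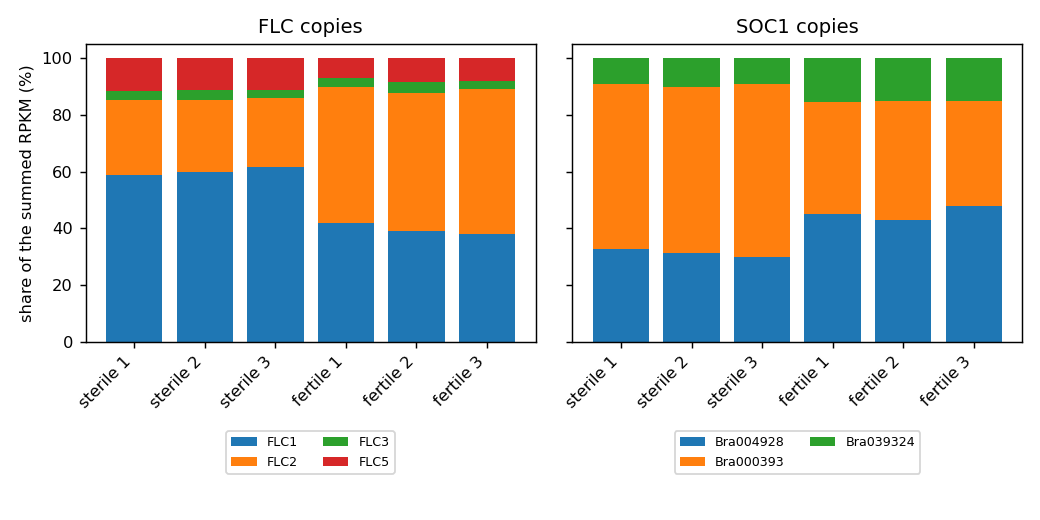
Share of each copy in the summed RPKM of its family (percent, stacked) in the 3 sterile and 3 fertile libraries. FLC1 takes 58.7% to 61.7% of FLC in sterile libraries and 37.8% to 41.9% in fertile ones, and Bra000393 takes 58.3% to 61.1% of SOC1 in sterile libraries and 37.3% to 41.9% in fertile ones.

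Whether copies differed in their change was tested on ratios within each library, which are also free of scaling. The 6 FLC pairs, 3 SOC1 pairs and the FLC sum over the SOC1 sum gave 10 comparisons. FLC1 stood at 2.21, 2.36 and 2.56 times FLC2 in RPKM in the sterile libraries, against 0.874, 0.804 and 0.740 times in the fertile libraries. The ratio was 2.95-fold higher in sterile buds, a log2 difference of 1.56 in counts. Against FLC5, FLC2 stood at 2.17 to 2.26 times in sterile and 5.77 to 6.91 times in fertile libraries, a log2 difference of -1.49.

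In the SOC1 family Bra000393 stood at 5.76 to 6.71 times Bra039324 in sterile libraries and 2.49 to 2.79 times in fertile ones, a log2 difference of 1.26. Bra004928 was 0.488 to 0.560 times Bra000393 in sterile libraries and 1.03 to 1.28 times in fertile ones, a log2 difference of -1.11. For the pairs with FLC3, which has 22 to 43 reads per library, the log2 differences were 0.68 for FLC1 over FLC3, -0.88 for FLC2 over FLC3 and -0.60 for FLC3 over FLC5. FLC3 stood at 0.249 to 0.307 times FLC5 in sterile libraries and 0.351 to 0.469 times in fertile ones. Without sterile library 1 or sterile library 3, the exact permutation p of that pair was 0.2. For these 7 pairs the groups did not overlap, with an exact two-sided permutation p of 0.1 each and 0.14 adjusted over the 10 comparisons, so none passed 0.05, which the design does not allow. No like share was computed for ratios of other genes; for single genes it was 66.6% in CPM, so the count of 7 in 10 is no result about the copies.

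The remaining 3 ratios overlapped between the groups. FLC1 stood at 4.99 to 5.57 times FLC5 in sterile libraries and 4.63 to 6.04 times in fertile ones, a log2 difference of 0.07 (exact permutation p = 0.6). That overlap rested on fertile library 1, without which the log2 difference was 0.20 (exact permutation p = 0.2) and the ranges did not overlap. It was 0.11 without sterile library 1, 0.04 without sterile library 3, 0.0093 without fertile library 2 and 0.0099 without fertile library 3. Bra004928 stood at 3.09 to 3.60 times Bra039324 in sterile libraries and 2.87 to 3.19 times in fertile ones. That was a log2 difference of 0.15 (exact permutation p = 0.2), or 0.090 without sterile library 1 and 0.20 without sterile library 2. The summed FLC RPKM was 2.07 to 2.38 times the summed SOC1 RPKM in sterile and 1.75 to 2.29 times in fertile libraries, with a log2 difference in counts of 0.19 (exact permutation p = 0.2). The log2 difference of these sums was 0.30 without fertile library 2 (exact permutation p = 0.1) and 0.11 without fertile library 1. These 3 ratios kept their direction whichever library was left out, but the size of the difference moved with single libraries. Whether the copies in them changed alike is not settled at 3 libraries a group.

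**Figure D4:**
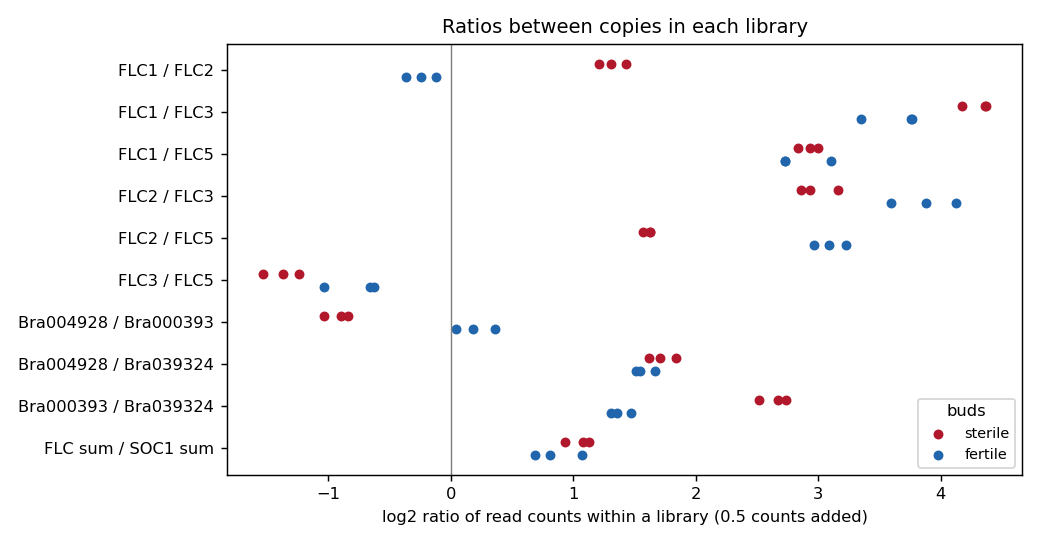
Log2 ratio of read counts between copies within each library, 1 point per library, sterile above fertile in each row. The groups are far apart for FLC1 over FLC2 (1.21 to 1.43 in sterile, -0.36 to -0.12 in fertile libraries) and overlap for FLC1 over FLC5, Bra004928 over Bra039324 and the FLC sum over the SOC1 sum.

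The spread between libraries was under what counting reads gives in 8 of 14 cases (7 copies in each group), over it in 6, and over 2 times it in 1. For FLC1 the coefficient of variation of CPM was 4.91% in sterile and 2.07% in fertile libraries, where counting alone gives 3.52% and 5.57%. For FLC3 it was 6.14% and 17.5%, against 15.7% and 19.7% from counting. The case over 2 times was Bra004928 in fertile buds, at 15.6% against 7.26% from counting, with its low value in fertile library 2. With 3 libraries a group, such a spread is itself known only roughly.

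The models of the copies differed in length within the FLC family only. Their lengths, recovered from counts and RPKM, were 621 nt for FLC1, 591 nt for FLC2, 594 nt for FLC3 and 432 nt for FLC5. All SOC1 models had 642 nt. Copies of one family are alike in sequence, and no source used here says how reads that match several copies were handled. Its part in the values of single copies was not tested, and a family's summed counts do not depend on how counted reads were divided among its copies. Summed RPKM of the FLC copies, whose lengths differ, does depend on it, and reads left uncounted would be missing from either sum.

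Many genes had profiles near the modest ones of the sums. Of 9605 tested genes within 1 log2 unit of the FLC sum, 1793 had a centred log2 CPM profile within a Euclidean distance of 0.25 over the 6 libraries, and the nearest was Bra000947 at 0.024. Bra000947 stood at 63.9, 62.8 and 65.9 CPM in sterile and 50.5, 52.8 and 53.5 CPM in fertile libraries. For the SOC1 sum, 651 of 10645 genes were within that distance, and the nearest was Bra017256 at 0.050. Bra017256 stood at 10.9, 11.7 and 11.7 CPM in sterile and 11.4, 9.23 and 11.1 CPM in fertile libraries. The tables give no name for either gene, and both were picked for their closeness. The limit of 0.25 is a distance over the 6 libraries. It is a different measure from the group differences, which were 0.31 in the FLC sum and 0.11 in the SOC1 sum. Genes within that limit need not share the change of a sum.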

How the data were processed

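Read counts per gene and RPKM were deposited by the authors as tables of the whole series, with 12 value columns matched to samples through sample titles. The count columns are headed as read counts, and the deposited RPKM are the same counts scaled to model length and library total. Bowtie2 2.0.6 and TopHat2 2.0.9 are named in the submitters' processing notes; the sources used here give no read counter, strand setting, build or annotation. Copy names came with the list of identifiers. RefSeq's gene table for CAAS_Brap_v3.01 matched 0 of the 7 copies and only 1 of all 43354 identifiers. The copies and tests were chosen with earlier results of these data known.

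Counts were fitted over all genes in R 4.3.3 with edgeR 4.0.16 (filterByExpr, TMM, quasi-likelihood test, Benjamini-Hochberg over 33150 genes, threshold 0.05). All 7 copies passed this filter and that on RPKM. Standard errors are the log2 fold change over the square root of F, an approximation, and 95% intervals rest on them. For RPKM, limma-trend (3.58.1) was run on log2(RPKM + 1), for genes reaching 1 RPKM in 3 libraries or more; such fold changes understate low genes. Sums and ratios (0.5 counts added) were compared by exact two-sided permutation. The scripts were also run on simulated data in which few genes changed, as many up as down. That run does not bear on the choice of scaling. One count equals 0.0270 to 0.0400 CPM. Alternatives were DESeq2 1.42.0, other scalings, filters and pseudocounts, a replicate block and leaving out each library. Named genes were all 7 copies and the nearest profile to each sum among genes within 1 log2 CPM.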

Additional observations from a re-analysis of the deposited data

How the results depend on the processing

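Of 154 recomputed fold changes of single copies, 145 kept direction and call and 9 gained or lost a call. None of them reversed, nor did any of 98 recomputed sums and ratios, which could not pass 0.05 in this design. With library size alone, FLC3 passed at a log2 fold change of 0.54, while Bra004928 at -0.13 and Bra039324 at -0.27 did not pass (edgeR); limma on log2(RPKM + 1) gave 0.34, -0.10 and -0.20, with the same gains and losses. Both scale to library total, under which the median log2 fold change over genes was 0.31 and 0.27. Over all alternatives of both tests, adjusted p (edgeR or limma) ran from 0.0019 to 0.62 for FLC3, 0.00016 to 0.81 for Bra004928 and 0.0034 to 0.27 for Bra039324. In edgeR, leaving out each library in turn changed no call. In RPKM, it gave -0.23 to -0.030 for Bra004928, which passed without fertile library 2 (limma adjusted p = 0.017), and -0.28 to -0.14 for Bra039324, which passed without fertile library 2 (limma adjusted p = 0.026) or sterile library 2 (limma adjusted p = 0.040). The replicate block called 6 copies and 21210 genes, with 0.91 for FLC1, and changed no call of a copy; the deviations of same-numbered libraries from their group means correlated at 0.017, -0.023 and 0.070, so a number was treated as a name and not as a pair. FLC3, at 22 to 43 reads per library, is the copy most limited by depth, and its call rests on the scaling.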
